A study of Mus musculus with 8 samples.

Results

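Immediate early genes are switched on within minutes of a stimulus from factors already present in the cell, and 10 of them were followed here: Fos, Fosb, Jun, Junb, Egr1, Nr4a1, Arc, Npas4, Btg2 and Dusp1. They were chosen by name as fast-responding genes of neuronal activity and stress, with earlier results of these data known. They are 10 of the 55487 gene identifiers in each table. All 10 symbols matched 1 mouse Ensembl identifier each. Their RNA was counted in the mouse DMH, the dorsomedial hypothalamus, a nucleus concerned with feeding, arousal and daily rhythms, in tissue whose sample names point to laser microdissection. In 4 libraries (group shPpp1r17, genotype Ppp1r17 knockdown) a short hairpin was directed at Ppp1r17, which encodes an inhibitor of protein phosphatases, and in 4 others (group shfLuc, genotype fLuc knockdown) at firefly luciferase, so that both groups carried a hairpin. Vector, promoter, strain, sex, age and the interval before collection were not given in the sources used here. No label ties a library to an animal. The p-values set the difference between the groups against the spread among these libraries, and that spread may be technical.

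In neurons, calcium entry and the MAP kinase cascade act on factors such as CREB and the serum response factor, which bind cyclic AMP response elements and serum response elements of immediate early promoters. Fos, Fosb, Jun and Junb encode subunits of the dimeric AP-1 transcription factor, Egr1 a zinc finger factor, Nr4a1 an orphan nuclear receptor and Npas4 a neuronal factor that depends closely on calcium. Arc encodes a synaptic protein, Btg2 an antiproliferative adaptor of mRNA deadenylation, and Dusp1 a phosphatase that switches off MAP kinases. Several of them, Fos, Jun, Egr1, Btg2 and Dusp1 among them, are also induced in glia and vessels by growth factors, inflammation or tissue handling, whereas Arc and Npas4 are more closely tied to neurons.

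Promoter sequences were searched for elements known to drive fast genes. RefSeq windows on GRCm38.p6, from 250 bases before to 50 bases after the start site, were at hand for 8 of the 10 members, all but Arc and Egr1. The half-site of the cyclic AMP response element (TGACG, on either strand) was found in 7 of these 8 windows, those of Fos, Fosb, Junb, Nr4a1, Npas4, Btg2 and Dusp1, against 20.8% of 32851 windows in all. The full palindrome TGACGTCA, which contains a half-site on each strand, was found in Btg2 and Dusp1, against 1.79% of windows. The windows of the members are rich in G and C, with a median of 67.6% against 52.7% over all windows, and that composition was not matched in these shares. The windows of 3 genes that rose and of 1 that did not pass the test are shown, 5′ to 3′ on the strand of the gene, with the half-sites and full elements in capitals, and in Jun the AP-1-like site TGACATCA near the start.
Fos: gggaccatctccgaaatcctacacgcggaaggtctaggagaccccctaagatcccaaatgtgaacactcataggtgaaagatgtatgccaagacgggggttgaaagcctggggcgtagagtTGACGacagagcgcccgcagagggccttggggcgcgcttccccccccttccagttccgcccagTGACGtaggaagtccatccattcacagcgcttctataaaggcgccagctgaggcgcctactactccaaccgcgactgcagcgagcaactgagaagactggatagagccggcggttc
Jun: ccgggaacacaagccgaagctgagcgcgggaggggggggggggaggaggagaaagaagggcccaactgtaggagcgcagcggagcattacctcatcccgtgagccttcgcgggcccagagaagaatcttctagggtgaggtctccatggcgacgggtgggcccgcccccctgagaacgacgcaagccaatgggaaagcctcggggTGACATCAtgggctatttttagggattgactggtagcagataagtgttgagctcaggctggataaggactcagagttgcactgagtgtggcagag
Btg2: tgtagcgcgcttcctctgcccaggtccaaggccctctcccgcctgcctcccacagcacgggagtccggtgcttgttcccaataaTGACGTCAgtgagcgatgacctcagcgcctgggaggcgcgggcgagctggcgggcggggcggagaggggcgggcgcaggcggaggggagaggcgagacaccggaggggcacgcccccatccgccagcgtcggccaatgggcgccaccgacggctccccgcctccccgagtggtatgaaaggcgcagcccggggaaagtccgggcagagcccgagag
Nr4a1: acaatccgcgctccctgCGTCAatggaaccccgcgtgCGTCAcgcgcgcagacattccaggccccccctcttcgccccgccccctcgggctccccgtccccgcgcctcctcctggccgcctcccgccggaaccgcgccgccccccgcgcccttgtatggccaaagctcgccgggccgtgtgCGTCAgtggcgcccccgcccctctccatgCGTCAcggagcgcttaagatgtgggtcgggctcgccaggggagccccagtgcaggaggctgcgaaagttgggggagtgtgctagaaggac
The Fos window, chr12:85473640-85473939 on the plus strand, holds half-sites that begin at -129 and -66 and a TATAAA at -33. The Jun window, chr4:95052173-95052472 on the minus strand, holds no half-site but the AP-1-like site at -45, which 3.62% of all windows hold. The Btg2 window, chr1:134079106-134079405 on the minus strand, holds the full element at -166. The Nr4a1 window, chr15:101266596-101266895 on the plus strand, holds the most half-sites, 4, beginning at -233, -213, -69 and -40. The AP-1 site TGACTCA (5.2% of windows), the Egr site GCGTGGGCG (0.612%) and the core of the serum response element (1.63%) were in none of the 8 windows, which says only that these letters are not there. TATAAA was found in Fos and Junb (13.6% of all windows), but in Junb it lies at 1 to 6, from the RefSeq start site on and not before it. CCAAT was found in Jun, Junb and Btg2 (37.4%). Genes that rose and genes that did not thus both held the half-site, and Jun rose without one.

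**Figure D1:**
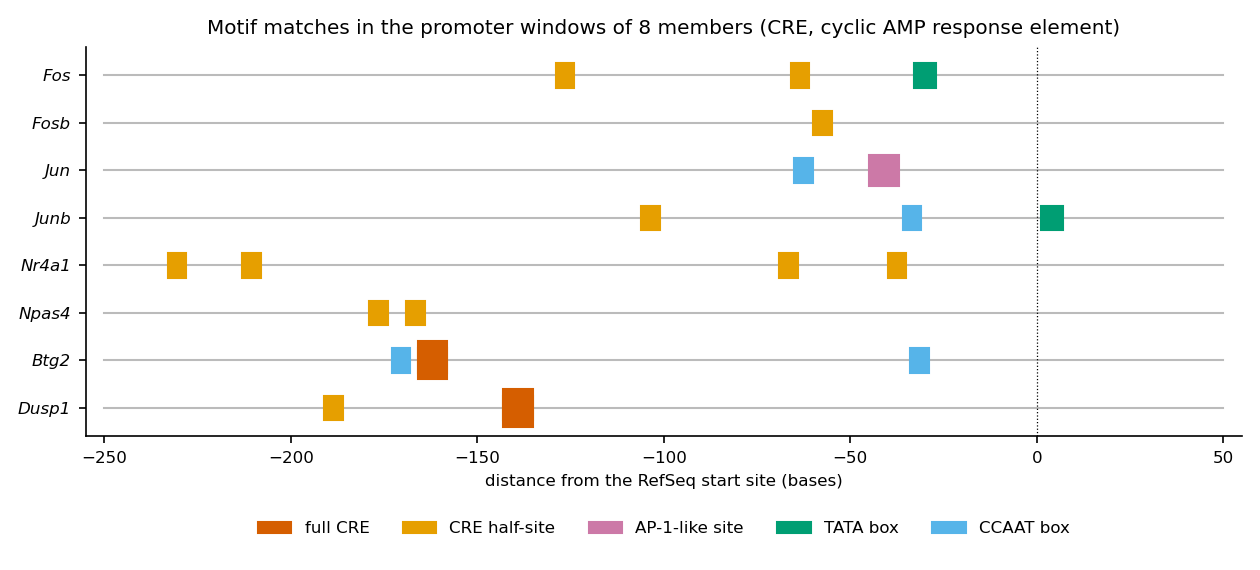
Motif matches (coloured boxes) along the promoter windows of 8 members (rows), by distance in bases from the RefSeq start site; CRE stands for cyclic AMP response element. Full elements are in Btg2 and Dusp1, and Nr4a1 has 4 half-sites.

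The libraries held 23070147 to 25749643 estimated reads in shfLuc and 25637389 to 33907984 in shPpp1r17. The hairpin's target separated the shPpp1r17 libraries: in CPM (reads scaled to a common library size with TMM factors), Ppp1r17 stood at 147, 161, 161 and 171 in shfLuc 1 to 4, and at 87.7, 2.07, 3.10 and 87.2 in shPpp1r17 1 to 4. Libraries 2 and 3 thus kept 1.29% and 1.94% of the shfLuc mean, and libraries 1 and 4 kept 54.8% and 54.5%. With that spread its log2 fold change of -1.83 (SE 0.80) did not pass (adjusted p = 0.197, edgeR), while limma voom gave -3.31 (adjusted p = 0.0368) and edgeR without libraries 2 and 3 gave -0.88 (adjusted p = 0.00428). On a principal component analysis of all genes, shPpp1r17 2 and 3 were also the libraries most apart from shfLuc (first component, 32.3% of variance). Markers of the labelled nucleus were present, with Gal, Brs3 and Ppp1r17 at 1441 ± 136, 44.9 ± 4.95 and 160 ± 9.99 CPM in shfLuc (SD, n = 4).

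Part of the immediate early genes were higher in shPpp1r17. Fos, Egr1, Jun and Btg2 rose by 2.06-, 1.77-, 1.61- and 1.41-fold, 0 members fell, 5 missed the threshold (an adjusted p of 0.05, from edgeR), and Fosb had too few reads to be tested. Of all 17339 genes tested, 3.39% were called higher, 2.66% lower and 6.06% in either direction. Junb and Dusp1 also had all shPpp1r17 libraries above all shfLuc libraries, which makes 6 members with groups that did not overlap in that direction, against 7.12% of all genes tested. With limma on log2(TPM + 1) 1 of 6 tested members, Fos, was called higher against 2.0% of genes, and there 297 genes were called higher and 533 lower, where edgeR on counts called 588 and 462. Arc, Nr4a1, Npas4 and Fosb overlapped between the groups. The median log2 fold change of the 9 tested members was 0.68, with 8 above 0, against 0.00 over all tested genes, of which 8769 lay above 0. Summed over the 10 members, the level ran from 51.2 to 61.2 CPM in shfLuc and from 84.4 to 95.8 CPM in shPpp1r17. In bulk tissue, more or fewer cells of a type and more or less RNA per cell cannot be told apart.

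**Figure D2:**
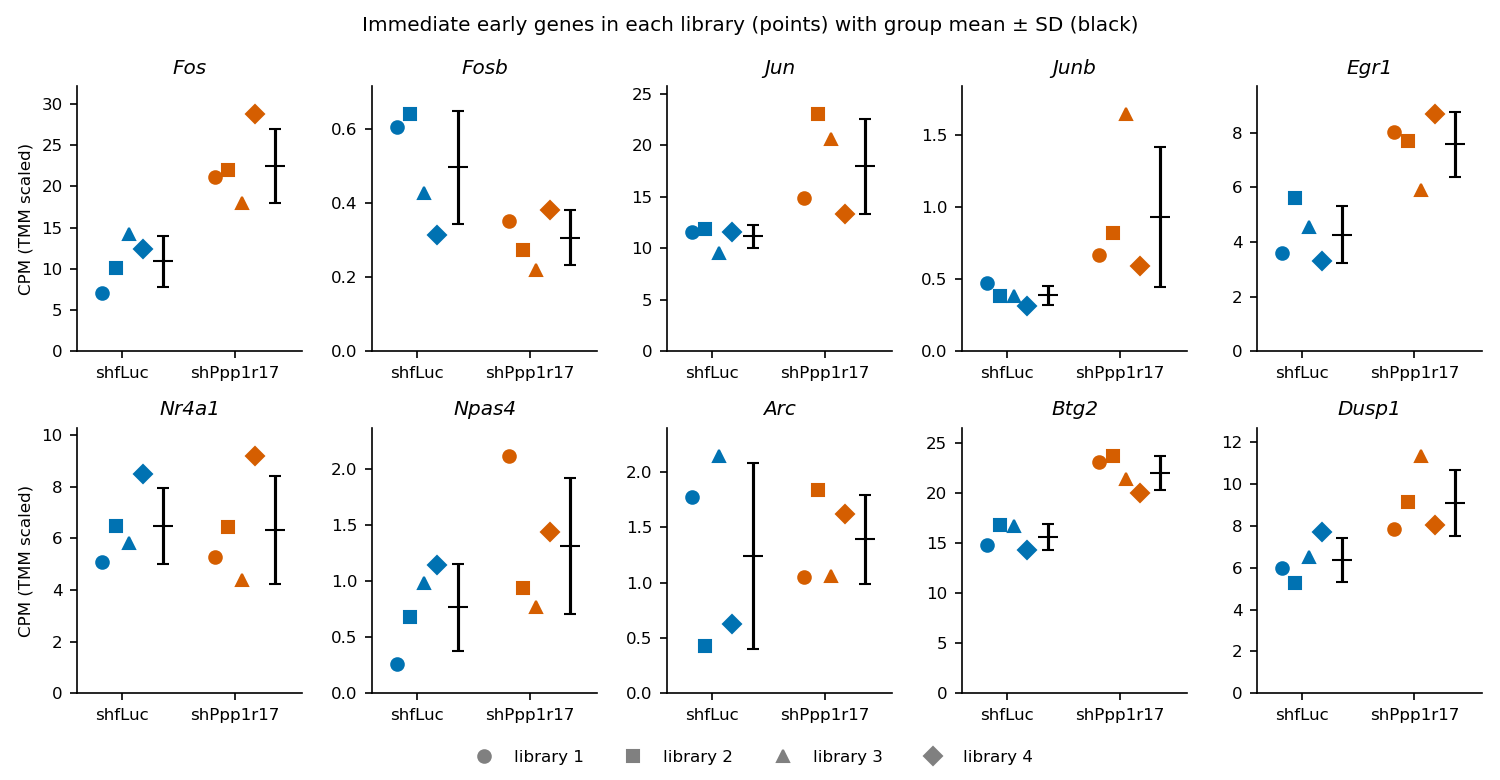
CPM (vertical axes, each from 0) of the 10 members in the 4 shfLuc (blue) and 4 shPpp1r17 (orange) libraries, with the group mean ± SD in black. The groups are apart for Fos, Jun, Junb, Egr1, Btg2 and Dusp1 and overlap for Fosb, Nr4a1, Npas4 and Arc.

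Of the AP-1 subunits, Fos and Jun rose. Fos (ENSMUSG00000021250; chromosome 12, 85473890 to 85477273, plus strand, in GENCODE M21 on GRCm38) stood at 7.04, 10.1, 14.2 and 12.4 CPM in shfLuc 1 to 4 and at 21.1, 22.0, 18.0 and 28.7 CPM in shPpp1r17 1 to 4. The lowest shPpp1r17 library, 3, lay above the highest shfLuc library, also numbered 3, and the top value was in shPpp1r17 4, which kept 54.5% of Ppp1r17. On the log2 scale Fos rose by 1.04 (SE 0.20; adjusted p = 0.0136, edgeR). Jun, the partner that also forms dimers with itself (ENSMUSG00000052684; chromosome 4, 95049034 to 95052222, minus strand), stood at 11.6, 11.9, 9.53 and 11.6 CPM in shfLuc and at 14.9, 23.0, 20.6 and 13.3 CPM in shPpp1r17. Here libraries 2 and 3 were the high ones, at 206% and 185% of the shfLuc mean, while libraries 1 and 4 stood at 134% and 119%, closer to the control range. On the log2 scale Jun rose by 0.68 (SE 0.17; adjusted p = 0.0341, edgeR).

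Junb and Fosb were low. Junb, an AP-1 subunit that can restrain Jun (ENSMUSG00000052837; chromosome 8, 84974484 to 84978718, minus strand), had 11, 9, 9 and 8 reads in shfLuc (0.475, 0.384, 0.385 and 0.315 CPM) and 17, 21, 45 and 20 reads in shPpp1r17 (0.664, 0.820, 1.64 and 0.588 CPM). Library 3 alone reached 422% of the shfLuc mean, and the other shPpp1r17 libraries stood between 151% and 211%. It did not pass in edgeR, at 1.24 on the log2 scale (SE 0.47; adjusted p = 0.132). Fosb, whose products accumulate under repeated stimulation (ENSMUSG00000003545; chromosome 7, 19302696 to 19310051, minus strand), had 14, 15, 10 and 8 reads in shfLuc and 9, 7, 6 and 13 in shPpp1r17, so no difference could be detected at this depth. On the log2 scale its difference was -0.69 (SE 0.66; adjusted p = 0.623) in edgeR with no filter on low counts. The deposited effective length of Fosb was 1319 bases in shPpp1r17 2 and 3007 to 3264 bases in the other libraries, which raises its TPM there for the same reads.

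Among the other transcription factors Egr1 rose, while Nr4a1 and Npas4 did not pass. Egr1 (ENSMUSG00000038418; chromosome 18, 34859823 to 34864984, plus strand) stood at 3.59, 5.62, 4.57 and 3.30 CPM in shfLuc and at 8.01, 7.69, 5.92 and 8.67 CPM in shPpp1r17. Library 3 was the lowest of its group, just above the highest shfLuc library, and library 4 was the highest. On the log2 scale Egr1 rose by 0.83 (SE 0.21; adjusted p = 0.0356, edgeR). Nr4a1 (ENSMUSG00000023034; chromosome 15, 101254269 to 101274795, plus strand) stood at 5.10, 6.48, 5.81 and 8.50 CPM in shfLuc and at 5.27, 6.44, 4.38 and 9.17 CPM in shPpp1r17, so that the shPpp1r17 range enclosed that of shfLuc. Its log2 fold change of -0.03 (SE 0.24, adjusted p = 0.956 in edgeR) changed sign under 7 of 26 alternatives. Npas4 (ENSMUSG00000045903; chromosome 19, 4984355 to 4990316, minus strand) was low, with 6, 16, 23 and 29 reads in shfLuc (0.259, 0.682, 0.983 and 1.14 CPM) and 54, 24, 21 and 49 in shPpp1r17 (2.11, 0.937, 0.767 and 1.44 CPM). Libraries 1 and 4 lay above all shfLuc libraries and libraries 2 and 3 within them, and the log2 fold change of 0.77 (SE 0.48) had an adjusted p of 0.383.

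Of the effectors, Btg2 rose. Btg2 (ENSMUSG00000020423; chromosome 1, 134075170 to 134079120, minus strand) had the steadiest values of the members, at 14.8, 16.8, 16.7 and 14.3 CPM in shfLuc and 23.1, 23.7, 21.4 and 20.0 CPM in shPpp1r17. All 4 shPpp1r17 libraries lay between 128% and 151% of the shfLuc mean, and on the log2 scale Btg2 rose by 0.49 (SE 0.10; adjusted p = 0.0195, edgeR). Dusp1 (ENSMUSG00000024190, minus strand) stood at 5.96, 5.28, 6.50 and 7.71 CPM in shfLuc and at 7.85, 9.14, 11.3 and 8.05 CPM in shPpp1r17. The groups did not overlap, though shPpp1r17 1 lay only just above shfLuc 4. Its log2 fold change of 0.51 (SE 0.17) had an adjusted p of 0.103 in edgeR and of 0.0498 in DESeq2, under which it passed with 5.73% of all genes called higher. Arc (ENSMUSG00000022602; chromosome 15, 74669083 to 74672570, minus strand) varied most within shfLuc, with 1.77, 0.426, 2.14 and 0.629 CPM there and 1.05, 1.84, 1.06 and 1.62 CPM in shPpp1r17. In shfLuc, libraries 2 and 4 lay below the shPpp1r17 range, library 3 above it and library 1 within it, and the log2 fold change was 0.17 (SE 0.48, adjusted p = 0.880), with the sign turning under 3 alternatives.

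Compared per length, in TPM (estimated transcripts, scaled by the authors to length and library) of shfLuc, the members fell into a higher and a lower set. Btg2 (8.12 ± 0.832), Fos (8.09 ± 2.50), Dusp1 (6.0 ± 0.964), Jun (5.85 ± 0.480) and Nr4a1 (4.04 ± 0.943, SD, n = 4) came first, and each of these neighbours overlapped the next over the 4 libraries. Egr1 (2.04 ± 0.534 TPM) lay below all Nr4a1 values and above all Arc values. Arc (0.637 ± 0.438), Junb (0.459 ± 0.0681), Npas4 (0.323 ± 0.168) and Fosb (0.208 ± 0.0655 TPM) followed, again with overlapping neighbours. The genes that rose were all among the upper 6 of this order, and the lower 4 had under 60 reads in each library.

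Set beside residual Ppp1r17, the members did not share 1 pattern. Fos and Egr1 were highest in library 4, which kept 54.5% of Ppp1r17, and lowest in library 3, which kept 1.94%. Jun, Junb and Dusp1 were instead highest in library 2 or 3. Btg2 differed little among the 4 libraries. Over the 10 members, the highest shPpp1r17 value was in library 4 for 4 members, in library 2 for 3, in library 3 for 2 and in library 1 for 1. Members above all shfLuc libraries numbered 7, 6, 6 and 8 in libraries 1 to 4. The share of all tested genes above shfLuc in a single library was not computed, so these counts have no background and support no conclusion. With 4 libraries a group, and Ppp1r17 levels that fall into separate clusters, no correlation with residual Ppp1r17 was computed, and whether these patterns differ between members was not tested.

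**Figure D3:**
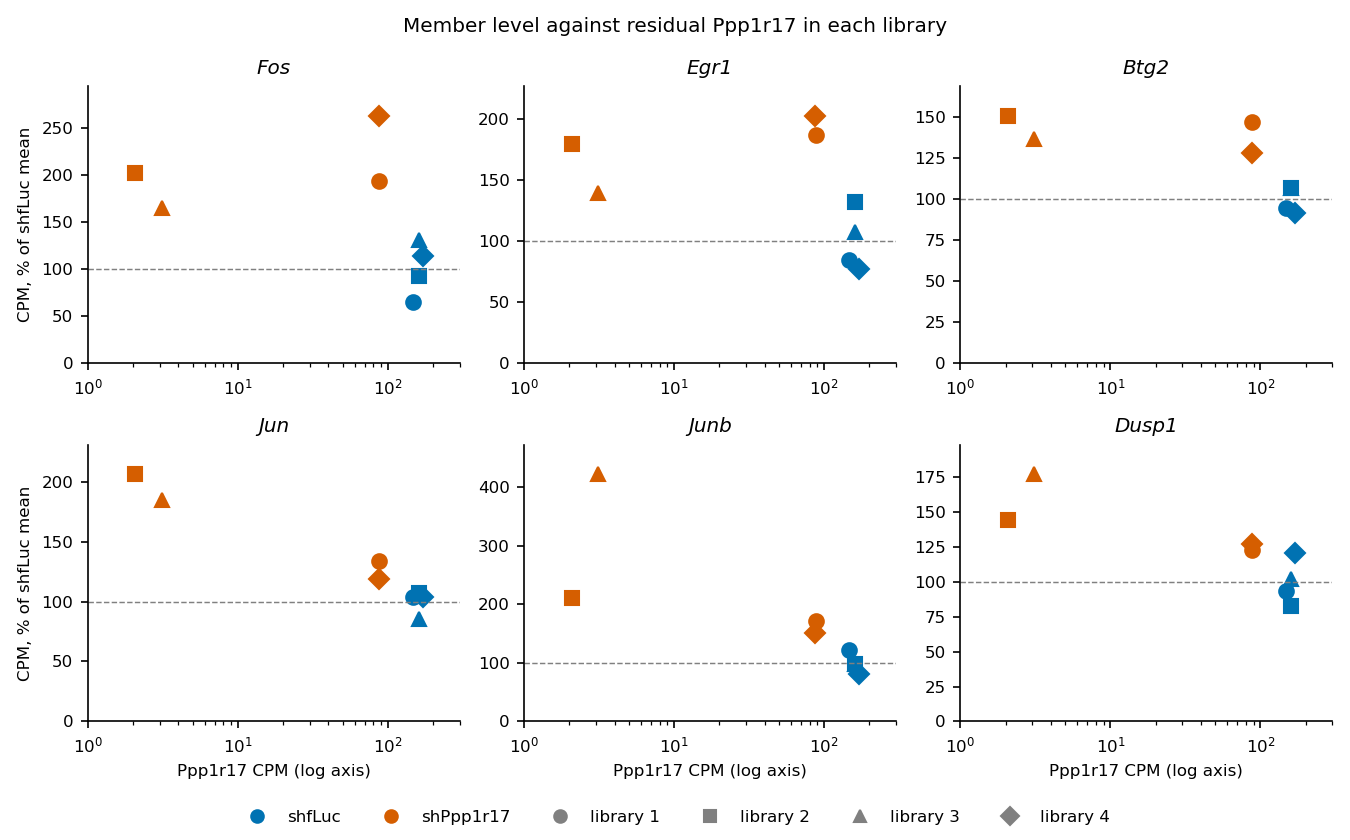
Level of 6 members as a percent of the shfLuc mean (vertical axes, from 0) against Ppp1r17 CPM on a log axis, 1 point per library, shfLuc in blue and shPpp1r17 in orange. All 6 members shown are above the control range in all 4 shPpp1r17 libraries, whether Ppp1r17 is at 2.07 or 87.7 CPM. Jun is highest where Ppp1r17 is lowest.

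Without the shPpp1r17 libraries 2 and 3, edgeR called 0 members, DESeq2 2 (Fos and Egr1) and limma voom 1 (Fos), where 0.144%, 1.19% and 0.216% of all genes were called higher. At an unadjusted p under 0.05 in edgeR, 5 members were higher, against 1096 of 18037 genes. The log2 fold changes then were 1.18 for Fos (SE 0.23, adjusted p = 0.0843), 0.96 for Egr1 (adjusted p = 0.122), 0.45 for Btg2 (0.170) and 0.33 for Jun (SE 0.15, adjusted p = 0.368). In the 2 libraries that kept 54.8% and 54.5% of Ppp1r17, the change in Fos, Egr1 and Btg2 was thus close to that over all 4. The change in Jun was under 0.5 of it on the log2 scale. The 2 fits share these libraries and the shfLuc libraries, so closeness is partly built in, and libraries 1 and 4 were not tested against 2 and 3. All 10 members were tested without shPpp1r17 2 and 3, with a median of 0.39 and 9 above 0. Leaving out 1 library changed the calls more than the folds. Without shfLuc 2 or without shfLuc 3 edgeR called 0 members, as it called 0 of all genes tested. At an unadjusted p under 0.05, 6 and 6 members were higher in these fits, against 1762 of 17778 and 1628 of 17773 genes. The log2 fold changes in these 2 fits were 1.0 and 1.19 for Fos, 0.72 and 0.62 for Jun, 0.99 and 0.86 for Egr1 and 0.53 and 0.52 for Btg2. DESeq2 called the same 4 members in both (3.85% and 3.70% of all genes higher), and limma voom called 0 members and 0 genes in both. In edgeR 2 members were called without shfLuc 1 (3.43% of all genes higher), 1 without shfLuc 4 (1.08%), 3 without shPpp1r17 1 (4.18%), 1 without shPpp1r17 2 (1.19%), 1 without shPpp1r17 3 (0.770%) and 3 without shPpp1r17 4 (4.75%). Fos was called in the 6 other fits that left out 1 library.

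Few other genes of the fast response passed the test. Of 21 other fast transcription factors 18 were tested and 1 rose, Crem, a modulator of cyclic AMP responses whose short form is itself inducible (29.6 ± 1.99 against 46.2 ± 6.27 CPM, SD, n = 4; log2 fold change 0.64, SE 0.10, adjusted p = 0.0105 in edgeR). It stood at 44.5, 52.2, 49.9 and 38.2 CPM in shPpp1r17 1 to 4, above the shfLuc range of 27.3 to 32.2. Fosl2, another AP-1 subunit (0.34), Klf4 (0.66) and the stress factor Atf3 (1.23, SE 0.45) did not pass, with adjusted p-values of 0.121, 0.127 and 0.126. Atf3 was at 3.44, 7.15, 4.97 and 1.09 CPM in shPpp1r17, so library 4 lay below all shfLuc libraries. Of 21 other fast effectors 19 were tested and 1 rose, Dusp6, a phosphatase of the kinase ERK (17.1 ± 2.13 against 23.4 ± 2.32 CPM, SD, n = 4; 0.46, SE 0.12, adjusted p = 0.0357). Dusp5 (1.46, SE 0.48, at 0.253 ± 0.118 CPM in shfLuc), Socs3 (0.78) and Sgk1 (0.30) did not pass. The 2 lists had medians of 0.15 and 0.03, and their share of genes called higher, 2 of 37, can be read against the 3.39% of all genes. Without the shPpp1r17 libraries 2 and 3, edgeR called 0 of the 37, DESeq2 1 and limma voom 0. At an unadjusted p under 0.05 in edgeR 3 of the 37 were higher there, against 1096 of 18037 genes.

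Slower activity-regulated genes, the upstream machinery and heat shock genes showed little. Of 11 slower genes, such as Bdnf, Homer1 and Vgf, 0 passed in either direction, with a median of 0.08, and those with the smallest p were Rgs4 (-0.19), Gpr3 (0.66), Nptx1 (-0.27) and Pcsk1 (0.17). Of 27 kinases and transcription factors upstream of the response 0 rose and 1 fell, where 2.66% of all genes were called lower. The 1 that fell, Rps6ka5, encodes the nuclear kinase MSK1 that phosphorylates CREB and histone H3. It stood at 29.9, 32.3, 37.8 and 27.7 CPM in shfLuc and at 21.3, 20.9, 19.3 and 21.7 CPM in shPpp1r17 (-0.62, SE 0.11, adjusted p = 0.0113 in edgeR). Its groups did not overlap, as those of 1169 of 17339 tested genes did not in that direction. In edgeR 0 of the 27 were called without shPpp1r17 2 and 3, where only 11 of all 18037 genes were called lower and 26 higher. In shPpp1r17 1 and 4 Rps6ka5 was still below all shfLuc libraries, at 21.3 and 21.7 CPM. Elk1 (-0.39), Mef2a (0.29) and Map2k2 (0.23) did not pass, and the median of the 27 was -0.04. Of 12 tested heat shock genes 0 passed, with a median of 0.05 and Hsp90aa1 (-0.25), Dnajb1 (-0.27), Hspe1 (0.16) and Chordc1 (-0.21) nearest the threshold.

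**Figure D4:**
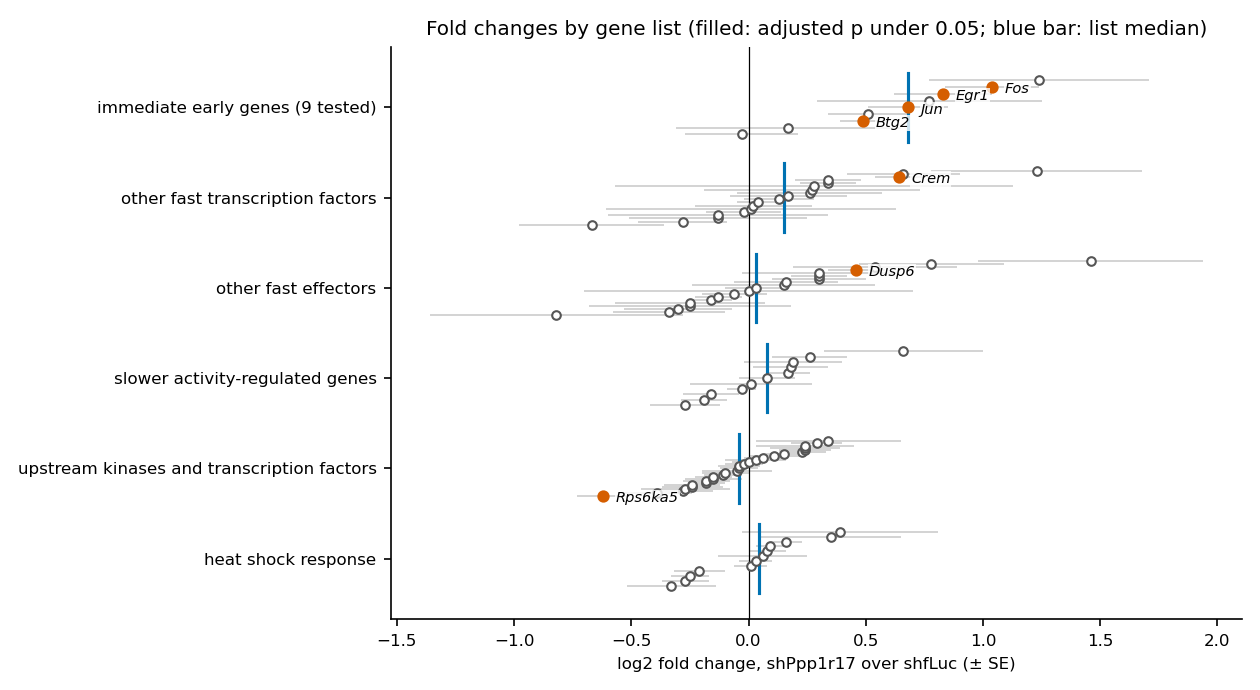
Log2 fold changes (horizontal axis, shPpp1r17 over shfLuc, bars ± SE) of the tested genes of 6 lists, filled where the adjusted p is under 0.05, with the list median as a blue bar. The median is 0.68 for the members and between -0.04 and 0.15 for the other 5 lists.

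Some markers of non-neuronal cells also rose. The counts for all marker lists can be read against 3.39% of all tested genes called higher and 2.66% lower. Of 8 markers of microglia and macrophages 2 rose, C1qa (0.97) among them, and 6 did not pass (list median 0.28). Their summed level was 229 to 285 CPM in shfLuc and 293 to 390 CPM in shPpp1r17. All 5 red blood cell genes rose, by 0.93 to 1.25 on the log2 scale (Hbb-bs 0.99, Hbb-bt 1.25), with sums of 328 to 567 and 638 to 1231 CPM. Of 6 oligodendrocyte markers 2 rose, Cldn11 (1.02) and Mobp (0.79), and the sums in shPpp1r17 1 to 4 were 1230, 1951, 2072 and 1132 CPM against 1103 to 1153 in shfLuc. The oligodendrocyte sum was thus high in libraries 2 and 3, as Jun was, and the other 2 sums lay above the shfLuc range in all 4 libraries.

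The summed levels of vascular and ependymal markers overlapped between the groups. Of 7 endothelial markers 1 rose, Ly6c1 (0.84), with sums of 297 to 362 CPM in shfLuc and 302 to 415 CPM in shPpp1r17. Of 6 mural cell markers 0 passed (114 to 131 and 121 to 176 CPM), and of 3 tested markers of ependymal cells and tanycytes 0 passed (12 to 30.3 and 18.6 to 49.3 CPM over the 4 listed). Of 5 B and plasma cell genes 2 rose, Ighm (3.03) and Jchain (4.16), with sums of 34.6 to 441 and 407 to 2614 CPM. Of 10 neuronal markers Tubb3 rose (0.38) and Syt1 (-0.37) and Slc17a6 (-0.33) fell, with sums of 4377 to 4432 and 4320 to 4726 CPM. Of 7 astrocyte markers Gfap rose (1.82), and Agt (-0.61) and Slc1a3 (-0.46) fell, with sums of 3373 to 3763 and 3216 to 3575 CPM. Of 3 oligodendrocyte precursor markers 0 passed (54.7 to 61.9 and 56.6 to 71.3 CPM). Of 6 tested markers of the dorsomedial nucleus 0 passed, though 0 had a log2 fold change above 0 (median -0.45). Ppp1r17, Brs3 and Hmx2 had all shPpp1r17 libraries below all shfLuc libraries, as did 1169 of 17339 tested genes. Brs3 stood at 34.1, 7.26, 8.47 and 29.4 CPM in shPpp1r17 1 to 4 (-1.18, adjusted p = 0.0910 in edgeR). The sums of the list were 1595 to 1944 CPM in shfLuc and 1107 to 1532 CPM in shPpp1r17. That list holds Ppp1r17, and without it the sums overlapped, at 1433 to 1797 CPM in shfLuc and 1105 to 1445 CPM in shPpp1r17. Gal, at a mean of 1441 CPM in shfLuc, made up most of these sums. Without shPpp1r17 2 and 3, edgeR called 1 gene of the B and plasma cell list higher, Ppp1r17 lower and 0 others of these marker lists. Of all 18037 genes tested in that fit, only 26 were called higher and 11 lower, so few calls could come from any list. The list medians then were 2.48 for B and plasma cells, 0.74 for red blood cells and 0.19 for oligodendrocytes. They were 0.17 for microglia and macrophages, -0.04 for endothelial cells and -0.39 for the dorsomedial nucleus. Every listed marker had reads in every library. Fos and Egr1 were highest in library 4, at 28.7 and 8.67 CPM. The oligodendrocyte sum there (1132 CPM) was within its shfLuc range, and the microglial sum (293 CPM) just above its own. The red blood cell sum in library 4, 638 CPM, lay above its shfLuc range of 328 to 567 CPM. The part of these cells in the values of the immediate early genes was not tested.

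**Figure D5:**
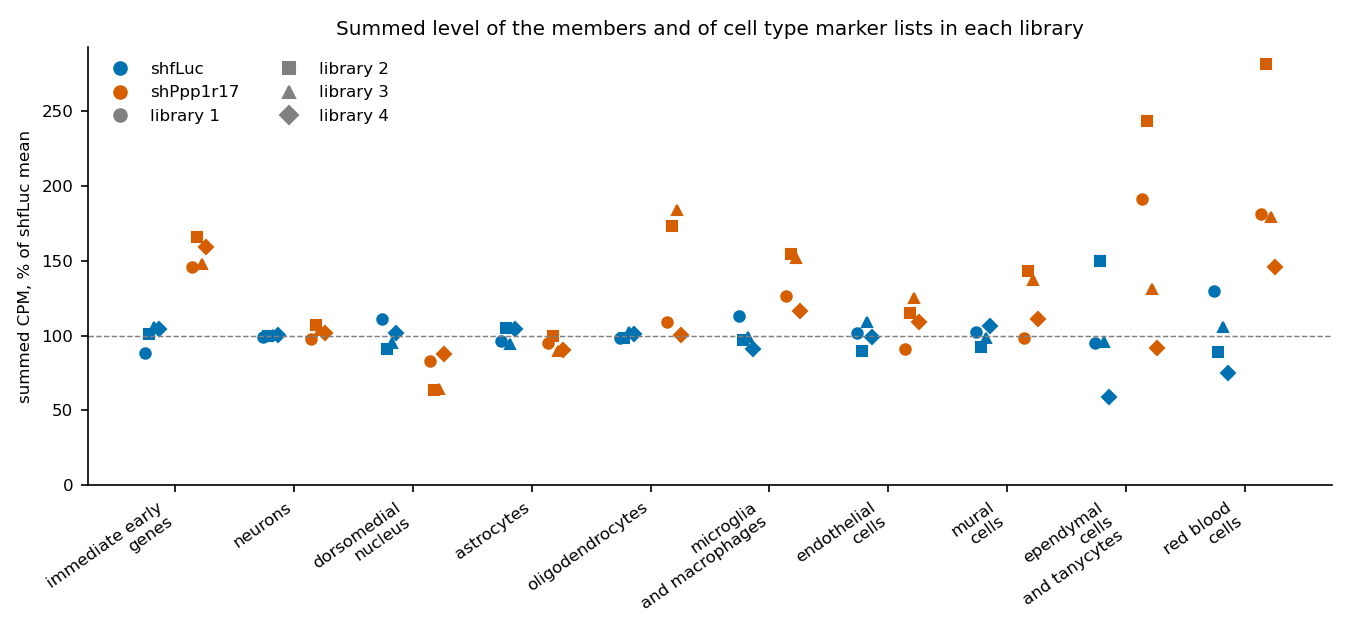
Summed CPM of the members and of 9 marker lists in each library (vertical axis, percent of the shfLuc mean, from 0), shfLuc in blue and shPpp1r17 in orange. Red blood cell markers are above the shfLuc range in all 4 shPpp1r17 libraries, as the members are, while oligodendrocyte markers are high mainly in libraries 2 and 3.

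The genes whose profile over the 8 libraries lay nearest to the median profile of the tested members were Cdkl4, Nts, Itgb1, Cox7a2l and Dclk3, out of 9543 genes compared. The measure was the mean absolute difference, over the 8 libraries, of log2 CPM taken relative to the shfLuc mean, and it was 0.08 for Cdkl4 and Nts and 0.10 for the other 3. The members' median profile was 0.56, 0.80, 0.49 and 0.52 in shPpp1r17 1 to 4 on that scale. Nts, the peptide neurotensin, was at 0.37, 0.66, 0.51 and 0.60. Among the members Btg2 was nearest to the median profile (0.09), and Arc (0.58), Npas4 (0.53) and Nr4a1 (0.43) lay farthest from it.

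The longest transcripts of the members had a G and C content of 49.7% (Btg2) to 62.6% (Junb), with a median of 55.8% against 49.0% over tested genes, and a median length of 2899 against 3149 bases. With offsets for each library's trend with length and GC content, the 4 called genes were still Fos, Jun, Egr1 and Btg2. Jun, Junb and Dusp1 each overlap a gene on the other strand in GENCODE M21, and no source used here says whether reads were counted by strand. Junos overlaps Jun by 689 bases and had 1 to 16 reads, against 223 to 588 for Jun. Prdx2 overlaps Junb by 351 bases and had 8878 to 15537 reads against 8 to 45 for Junb, so the assignment of Junb reads is uncertain. Ergic1 overlaps by 640 bases the upstream end of a long gene model of Dusp1 (chromosome 17, 26505590 to 26562128), and at a log2 fold change of 0.14 (adjusted p = 0.433 in edgeR) it did not pass, nor did Prdx2 at 0.14 (0.208).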

How the data were processed

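Per the labels' protocols, a PicoPure kit and a SMARTer kit were used to extract RNA and prepare the 8 libraries (4 shfLuc, 4 shPpp1r17) from dorsomedial hypothalamus. The deposited tables list, for 55487 Ensembl identifiers, estimated counts of reads, TPM and effective length, per the file headers. Tools listed in the submitters' processing notes are DRAGEN, bcl2fastq, limma and edgeR. Genome build, annotation and settings: not given in the sources used here. Up to 10.1% of genes had a fractional expected count as deposited, and these were rounded. The TPM of the authors, already divided by effective length, was used for levels between genes and in an alternative. Of the identifiers, 55141 matched a symbol. Positions come from GENCODE M21 (GRCm38), whose gene models may differ from those used by the authors.

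Genes were tested with edgeR 4.0.16 (R 4.3.3; quasi-likelihood, TMM factors, low-count filter with minimum count 10 and total 15, group as sole term), and p-values were Benjamini-Hochberg adjusted over 17339 genes. SEs were derived from fold change and F statistic, and the script was tested on simulated data. Alternatives were DESeq2 1.42.0, limma 3.58.1 (voom, or log2(TPM + 1), pseudocount 1), other scaling factors, filters and offsets, replicate number as a block, and leaving out libraries. DESeq2 and voom with libraries left out were added after seeing the data, as were marker sums without Ppp1r17. Named genes are the members, Ppp1r17, up to 4 genes per list with the smallest p, and the 5 nearest profiles. Others are named as list examples or neighbours, and 1 list gene is not reported here. Members and lists were chosen with earlier results of these data known. Between libraries of a group, counts varied by 7.46 to 40.2 times sampling noise (chi-square per degree of freedom), so none was counted as a duplicate. Reads carry no molecular identifiers in these tables, and their counts need not be independent.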

Additional observations from a re-analysis of the deposited data

Results flagged for a closer look

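Jun in shfLuc 3 stood at 9.53 CPM, below the other shfLuc libraries at 11.6, 11.6 and 11.9 CPM. Its gap to the nearest of them was 0.854 of the group's range, above Dixon's critical value for 4 samples. This was the only such value among 22 sets of 4 libraries (Ppp1r17 and the 10 members, in 2 groups), and chance flags about 1 in 20. The cause was not tested.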

How the results depend on the processing

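Of the 4 members called, Fos stayed past the threshold in 21 of 26 alternatives (log2 fold change 0.88 to 1.23), Btg2 in 15 (0.36 to 0.54), Jun in 12 (0.33 to 0.80) and Egr1 in 12 (0.55 to 1.0), and none changed sign. Dusp1 passed in 1 of 26, and Junb and Npas4 passed in 0 of 22 and 0 of 23. The members called were 4 with other scaling factors, filters and length or GC offsets, where 425 to 786 genes were called higher of 13620 to 30172 tested. They were 5 with DESeq2 (5.73% of all genes higher) and 3 with limma voom (3.03%). They were 2 with the replicate block (424 of 17339 genes higher) and 1 on log2(TPM + 1) (2.0%). The labels do not say whether a replicate number pairs libraries. Same-number correlations were -0.01, 0.04, 0.01 and 0.12, with 2 of 4 numbers best matched to their own, which does not settle it. With the replicate block 424 genes were called higher in place of 588, and 302 lower in place of 462. With 1 library left out at a time in edgeR the members called were 0 to 3, the genes called 0 to 1548 (0 to 842 higher, 0 to 706 lower) against 1050, and the other fast genes called 0 to 3 against 2. Without shPpp1r17 libraries 2 and 3 together, edgeR called 0 members, 37 genes (26 higher, 11 lower) and 0 other fast genes, DESeq2 2 members, 401 genes (214 higher, 187 lower) and 1 other fast gene, and limma voom 1 member, 56 genes (39 higher, 17 lower) and 0 other fast genes. Limma voom without shfLuc replicate 2 or without shfLuc replicate 3 called 0 members, 0 genes (0 higher, 0 lower) and 0 other fast genes. At an unadjusted p under 0.05 in these voom fits 4 and 5 members were higher, against 1577 of 17778 and 1461 of 17773 genes. DESeq2 without shfLuc replicate 2 called 4 members and 1 other fast gene. DESeq2 on all libraries called 1925 genes (994 higher, 931 lower), and log2(TPM + 1) called 297 higher. The other fast genes called were 1 with effective length offsets, 1 with the replicate block and 1 on log2(TPM + 1). Nr4a1, at -0.03, turned to 0.02 with effective length offsets, to 0.05, 0.10 and 0.13 without shPpp1r17 1, shPpp1r17 3 and shfLuc 4 (-0.27 to 0.13 over the libraries left out), and without shPpp1r17 2 and 3 together to 0.16 in edgeR, 0.16 in DESeq2 and 0.17 in voom. Arc, at 0.17, turned to -0.12 without shfLuc 2 (-0.12 in DESeq2) and to -0.05 without shfLuc 4 (-0.12 to 0.56 over the libraries left out). Ppp1r17 ran from -3.31 to -0.87 over 26 alternatives and passed in 4, limma voom on all libraries and the 3 fits without shPpp1r17 2 and 3. Fosb in shPpp1r17 was 61.7% of the shfLuc mean by CPM and 76.8% by TPM. Leaving out libraries reduces the samples behind each estimate of spread, and the cause of the other shifts was not tested. Fosb, Junb, Npas4 and Arc had under 60 reads in each library and SEs of 0.47 to 0.66 on the log2 scale, and the parts of depth and of variation between libraries in these were not tested.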
